A study of Homo sapiens with 4 samples.

Results

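The genes described here are 30 genes of the lysosome and of the transcription factors that drive it: the 3 MiT/TFE factors TFEB, TFE3 and MITF, 12 acid hydrolases or activators, 5 membrane or sterol export proteins, 3 autophagy genes and 7 subunits of the proton pump. They were listed by name, with no threshold on measured values but with earlier results of these data known, and all 30 were found among the 58884 genes of the count tables and passed the filter on low counts. The cells were HCT116, a human colorectal carcinoma line, with 2 libraries of control cells and 2 of cells in which RALY, a heterogeneous nuclear ribonucleoprotein that binds RNA, had been knocked down. The protocol names 72 h of lentivirus carrying either a RALY shRNA or a nonsilencing shRNA. The controls bear the titles of wild-type cells and the source name untreated, and the labels leave unsettled whether the nonsilencing virus was applied to them. The source names also number the line HCT-117 in the second library of each group, while the cell line entry reads HCT-116 throughout. Separate cultures are not named for the 2 libraries of a group, and the p-values therefore reflect only the spread among these libraries, which may be technical. In such bulk RNA, fewer cells of a kind and less RNA per cell cannot be told apart.

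Lysosomes are acidic organelles in which hydrolases break down material delivered by endocytosis and autophagy. The V-ATPase pumps protons into the lumen, and membrane proteins and transporters protect the membrane and export the products. TFEB, TFE3 and, in some cell types, MITF bind a short E-box-containing element, the CLEAR element, in promoters of lysosomal and autophagy genes. The kinase mTORC1, recruited to the lysosome by Rag GTPases, phosphorylates these factors when amino acids are plentiful and keeps them in the cytoplasm, a control that acts on the proteins and need not show in their mRNAs.

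RALY had 144 and 123 CPM (counts scaled to library totals after TMM normalization) in the controls and 39.6 and 35.1 CPM in the knockdown libraries. Its log2 fold change, knockdown over control, was -1.84 (SE 0.127, edgeR quasi-likelihood adjusted p = 6.59e-06). Totals ran from 13360007 to 16847520 counts per library, and the limit that a count of 0 allows, 3 counts, was 0.178 to 0.225 CPM, for counting error only. The epithelial markers EPCAM, CDH1, KRT8, KRT18, KRT19 and CLDN7 were between 37.3 and 207 CPM in all 4 libraries. KRT20, VIL1 and CEACAM5 stayed at or under 0.998 CPM, and CLDN7 and CDX2 fell by 0.35 and 0.47 on the log2 scale (edgeR adjusted p = 0.0392 and 0.0311). These 2 make 22.2% of the 9 epithelial markers tested, against 25.6% of all genes. Of the 9, 4 had positive and 5 had negative log2 fold changes, with a median of -0.02. The 9 leukocyte and macrophage markers summed to between 33.0 and 36.5 CPM per library, most of it CD68, which is itself a lysosomal membrane protein. PTPRC was at or under 0.561 CPM and TYROBP had no count. Of these markers 5 were tested, with a median log2 fold change of 0.50. Of the 5, 1 was higher at an edgeR adjusted p under 0.05, or 20%, against 25.6% of all genes in either direction. Of 7 fibroblast markers COL1A1 (80.6 to 131 CPM) and PDGFRB (15.2 to 21.3 CPM) were present, and the others did not pass the filter on low counts.

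After RALY knockdown 3 of the 30 genes fell and 1 rose at an adjusted p under 0.05, and all 4 encode acid hydrolases. The 12 hydrolases and activators are the largest role group. The 4 make 33.3% of them, against 25.6% of all genes tested. CTSB, GLA and TPP1 were 1.47-fold, 1.43-fold and 1.28-fold lower, and HEXA was 1.33-fold higher. No MiT/TFE factor, membrane protein, autophagy gene or V-ATPase subunit among the 30 was called in the main edgeR fit or by DESeq2. At an unadjusted edgeR p under 0.05 there were 0, 1, 2 and 1 in these groups. Over all 19686 genes tested, 25.6% were called, 12.5% higher and 13.1% lower, so 4 of 30 is a smaller share than the background. The median log2 fold change of the 30 was 0.05, against 0.01 over all genes tested, and their median absolute log2 fold change was 0.20, against 0.31. An unadjusted p under 0.05 was reached by 10 of the 30, against 38.2% of all genes. The CPM ranges of the groups did not overlap for 18 of the 30, with 12 higher and 6 lower in the knockdown, against 63.6% of all genes tested. The fit had 2 libraries per group, and leaving out either control ended all 4 calls, with 0 of 30 called by edgeR in each case (4 and 6 at an unadjusted p under 0.05), where 4.79% and 4.82% of all genes were called.

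**Figure D1:**
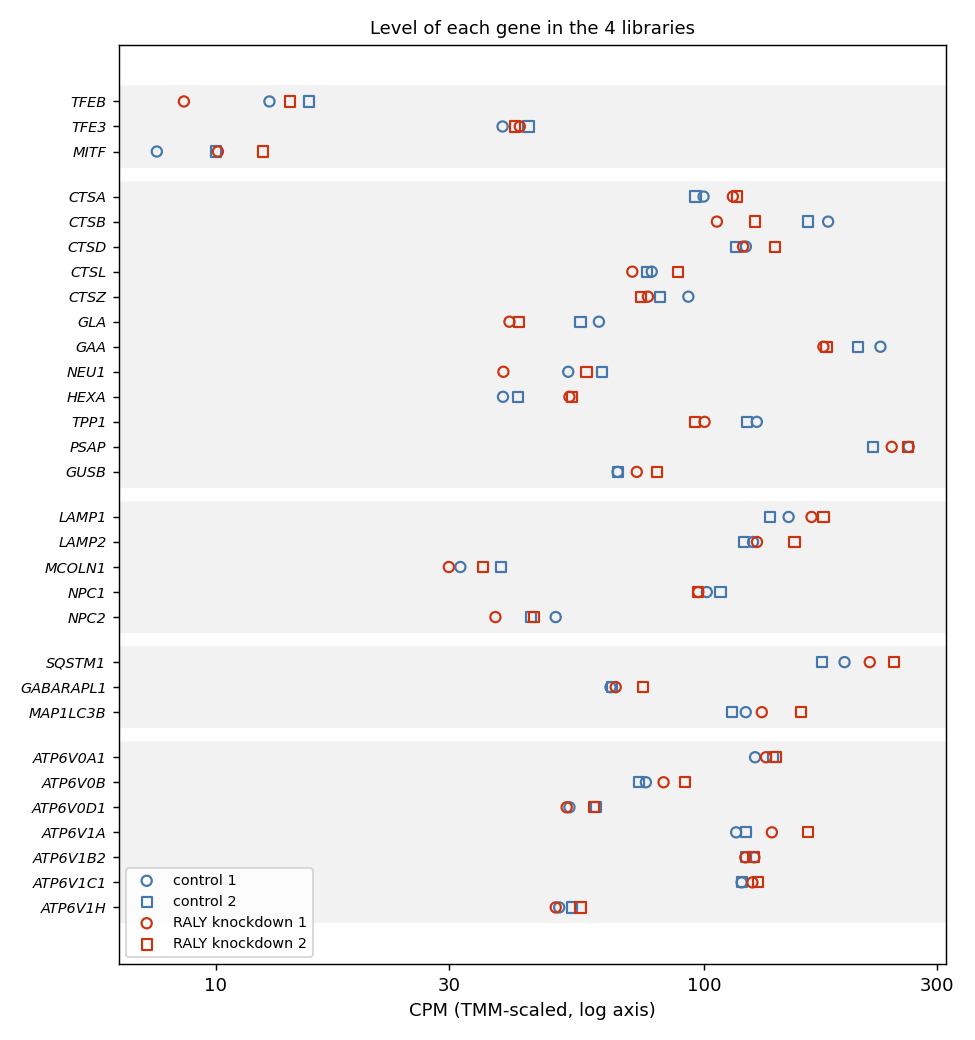
TMM-scaled CPM on a log axis for each of the 30 genes, grouped by role, with 1 symbol per library (blue for control, red for RALY knockdown). The red and blue symbols separate clearly for CTSB, GLA, TPP1 and HEXA, while those of TFE3, PSAP, ATP6V1B2 and ATP6V1H overlap.

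The CLEAR element was looked for in RefSeq promoters (GRCh38.p14), from 250 bases before to 50 after each start, as its palindromic core TCACGTGA, which contains the E-box CACGTG and reads the same on both strands. RefSeq promoters were at hand for 22 of the 30 genes, 29 in all; CTSB, HEXA, PSAP, LAMP2, ATP6V1A, ATP6V1B2, ATP6V1C1 and ATP6V1H were not in the table. The core was present in promoters of 5 genes, or 17.2% of the 29, against 0.98% of all 35116 promoters. The plain E-box CACGTG was in 27.6%, against 7.26%. Among 206 promoters of genes of the same pathway outside the 30, the shares were 7.28% and 17.5%. The element is known from promoters of lysosomal genes, so a share above that of all promoters was built into the choice of genes. These sequences show where the factors' known motif lies in these genes, each as 30 bases on the gene's strand with the core in capitals.
GAA, chr17:80101493-80101522, plus strand: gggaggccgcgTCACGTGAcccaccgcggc
LAMP1, chr13:113297199-113297228, plus strand: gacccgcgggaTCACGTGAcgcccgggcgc
CTSA, chr20:45891298-45891327, plus strand: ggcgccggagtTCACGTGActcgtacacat
MCOLN1, chr19:7522571-7522600, plus strand: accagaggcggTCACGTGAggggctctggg
ATP6V0D1, chr16:67481199-67481228, minus strand: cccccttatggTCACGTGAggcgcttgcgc
The core began 77, 29, 26, 42 and 60 bases before the start in GAA, LAMP1, CTSA, MCOLN1 and ATP6V0D1, and GAA, LAMP1 and MCOLN1 held another copy in the same promoter. None of these 5 genes was called in the main edgeR fit, where 25.6% of all genes were called. GAA alone was called in any alternative, by DESeq2 and in some edgeR settings given below. Their log2 fold changes were -0.30, 0.26, 0.24, -0.10 and -0.02 in that order, so they lay on both sides of 0. GLA and TPP1, the called genes with a promoter in the table, held neither motif there, and CTSB and HEXA could not be looked at. Outside the 30, 145 pathway genes had a promoter in the table, and 33 of them were called by edgeR. The core was held by 13 of the 145, of which 2 were called. The E-box was held by 33 of the 145, of which 10 were called. A match describes letters and says nothing of binding in these cells.

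None of the 3 MiT/TFE factors was called. TFEB (ENSG00000112561, chr6:41683978-41736259), the factor for which the lysosomal programme was described, had 12.9 and 15.5 CPM in the controls and 8.61 and 14.2 CPM in the knockdown libraries. Its groups overlapped, since the second knockdown library lay within the control range and only the first lay below it (log2 fold change -0.32, edgeR SE 0.251, adjusted p = 0.38). Without knockdown replicate 1 the value was -0.03, and without knockdown replicate 2 it was -0.73 (edgeR adjusted p = 0.951 and 0.0177), so 1 library sets its size. TFE3 (ENSG00000068323, chrX:49028726-49043410), which acts alongside TFEB in many tissues, had 38.7 and 43.7 CPM in the controls and 41.9 and 41.0 CPM in the knockdown libraries. Both knockdown values lay inside the control range (log2 fold change 0.01, edgeR SE 0.134, adjusted p = 0.972). MITF (ENSG00000187098, chr3:69739435-69968337), best known as the master factor of melanocytes, had 7.58 and 10.0 CPM in the controls and 10.1 and 12.5 CPM in the knockdown. Its groups were separated by less than the gap within either group (log2 fold change 0.36, edgeR SE 0.235, adjusted p = 0.295). Per kilobase of canonical transcript, TFE3 was the most abundant of the 3 in the controls at 12.5 CPM per kilobase, TFEB had 6.08 and MITF 1.83. MITF has several alternative promoters, 3 of them in the RefSeq table, and gene counts do not separate its isoforms.

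Among the acid hydrolases, CTSB (ENSG00000164733, chr8:11842524-11869448), a cysteine protease of the cathepsin family, fell most. It had 179 and 163 CPM in the controls and 106 and 127 CPM after knockdown (log2 fold change -0.55, edgeR SE 0.124, adjusted p = 0.00691). Both knockdown values lay below both controls. It was also called against a minimum fold of 1.2 (edgeR adjusted p = 0.0369), the only gene of the 30 to be so, against 15.7% of all genes. With control replicate 1 or 2 left out it was not called (edgeR adjusted p = 0.0861 and 0.0570), although its log2 fold change was -0.52 and -0.63.

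GLA (ENSG00000102393, chrX:101397803-101408012) encodes alpha-galactosidase A, which removes galactose from glycolipids and is deficient in Fabry disease. It had 60.9 and 55.8 CPM in the controls and 39.9 and 41.8 CPM after knockdown (log2 fold change -0.51, edgeR SE 0.126, adjusted p = 0.0112). The gap between the groups exceeded the gap within either. It was no longer called when control replicate 1 or 2 was left out (edgeR adjusted p = 0.132 and 0.0849) and against the minimum fold of 1.2 (edgeR adjusted p = 0.0593).

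TPP1 (ENSG00000166340, chr11:6612768-6619448), a serine protease that removes tripeptides and is deficient in a neuronal ceroid lipofuscinosis, had 128 and 122 CPM in the controls and 100.1 and 95.6 CPM after knockdown (log2 fold change -0.35, edgeR SE 0.108, adjusted p = 0.0301). Its groups did not overlap. Leaving out control replicate 1, control replicate 2 or knockdown replicate 2 ended the call (edgeR adjusted p = 0.152, 0.117 and 0.0701), as did the minimum fold of 1.2 (edgeR adjusted p = 0.244). TPP1 shares 13.9% of its exon bases with a long noncoding gene on the same strand (ENSG00000285338), so part of its counts could belong to either; that gene had control counts of 789 and 987 and knockdown counts of 777 and 700.

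HEXA (ENSG00000213614, chr15:72340919-72376476), the alpha subunit of beta-hexosaminidase A, which degrades GM2 ganglioside, was the only one of the 12 called higher. It had 38.7 and 41.6 CPM in the controls and 53.0 and 53.7 CPM after knockdown (log2 fold change 0.41, edgeR SE 0.127, adjusted p = 0.0327). The knockdown values lay close together and above both controls. HEXA was not called with plain library totals, with DESeq2 (DESeq2 adjusted p = 0.0741), against the minimum fold of 1.2 (edgeR adjusted p = 0.177) or with control replicate 1 or 2 left out (edgeR adjusted p = 0.293 and 0.159). It shares 16.3% of its exon bases with an antisense gene (ENSG00000261460) that had no count in any library.

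The other 8 hydrolases and activators were not called, with log2 fold changes from -0.30 to 0.24. GAA, acid alpha-glucosidase, which breaks down glycogen, had 229 and 206 CPM in the controls and 175 and 178 CPM after knockdown (log2 fold change -0.30, edgeR adjusted p = 0.0789). Its groups did not overlap, and it was called lower by DESeq2 (DESeq2 adjusted p = 0.0399) and with plain library totals (edgeR adjusted p = 0.0320). CTSZ, another cysteine cathepsin, had a log2 fold change of -0.20, also without overlap. NEU1, a sialidase, was at 52.7 and 61.7 CPM in the controls and 38.8 and 57.4 CPM in the knockdown, with the second knockdown library inside the control range. Its log2 fold change of -0.25 was -0.57 without knockdown replicate 2 (edgeR adjusted p = 0.0022) and -0.02 without knockdown replicate 1. Only the first knockdown library was thus below the controls for TFEB and NEU1. The same held for other genes of the 30, such as NPC2, MCOLN1 and ATP6V0D1.

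CTSA, the serine carboxypeptidase that protects NEU1 in a complex, was at 99.7 and 95.9 CPM in the controls and 114 and 117 CPM after knockdown (log2 fold change 0.24, edgeR adjusted p = 0.118). GUSB, beta-glucuronidase, had a log2 fold change of 0.20, and reads could be split with its pseudogenes, of which GUSBP11 had between 776 and 1266 counts. The aspartic protease gene CTSD (0.13 on the log2 scale), the cysteine protease gene CTSL (0.05) and PSAP, the precursor of the saposins that present lipids to hydrolases (0.06), had overlapping groups. CTSD shares 53.3% of its exon bases with a same-strand gene (ENSG00000250644) and CTSA 28.5% with NEURL2 on the other strand, so counts of both are uncertain.

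**Figure D2:**
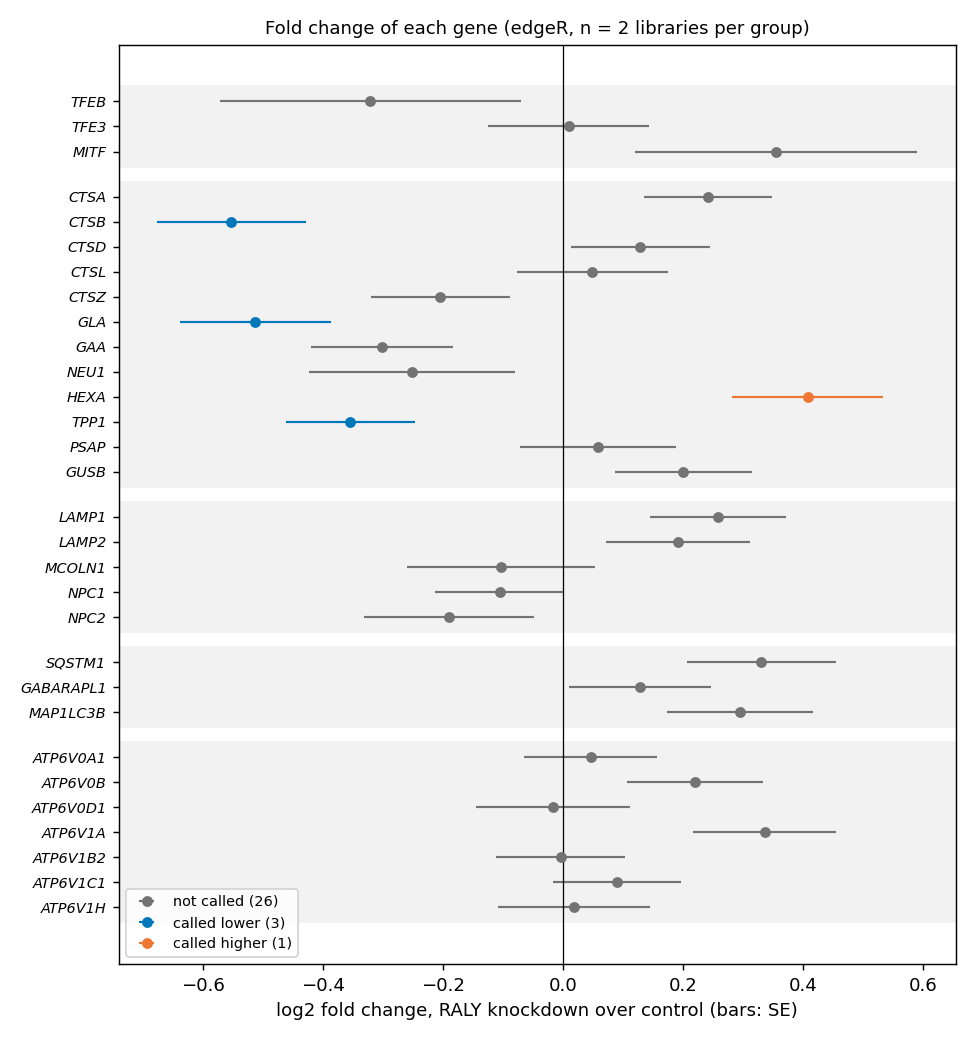
Log2 fold change, RALY knockdown over control, of the 30 genes grouped by role, with bars of 1 standard error from the edgeR fit with 2 libraries per group. The called genes CTSB, GLA and TPP1 lie left of 0 and HEXA right of it; the V-ATPase subunits other than ATP6V1A and ATP6V0B lie within 0.1 of 0.

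No membrane or sterol export protein was called. LAMP1 and LAMP2, heavily glycosylated proteins that line the inner face of the membrane, had the smallest p of the 5. LAMP1 was at 149 and 136 CPM in the controls and 166 and 175 CPM after knockdown (log2 fold change 0.26, edgeR SE 0.114, adjusted p = 0.115). LAMP2 was at 126 and 120.4 CPM in the controls and 128 and 153 CPM after knockdown (log2 fold change 0.19, edgeR SE 0.12, adjusted p = 0.265). For both the knockdown values were above both controls, for LAMP2 narrowly in the first knockdown library. The calcium channel gene MCOLN1 (31.7 to 38.4 CPM in the controls, with 35.3 CPM in the second knockdown library) and NPC2, which passes cholesterol to NPC1 (49.6 and 44.3 against 37.4 and 44.9 CPM), had overlapping groups, with log2 fold changes of -0.10 and -0.19. NPC1, the cholesterol exporter of the membrane, was at 101 and 108 CPM in the controls and 97.2 CPM in each knockdown library (log2 fold change -0.11, edgeR adjusted p = 0.515).

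The 3 autophagy genes had positive log2 fold changes, and none was called. Their groups did not overlap, which also held for 63.6% of all genes tested. SQSTM1, the p62 adaptor that carries ubiquitinated cargo to autophagosomes, was at 194 and 174 CPM in the controls and 218 and 244 CPM after knockdown (log2 fold change 0.33, edgeR SE 0.124, adjusted p = 0.0679). MAP1LC3B, an ATG8 family protein attached to autophagosome membranes, was at 122 and 114 CPM in the controls and 131 and 158 CPM after knockdown (log2 fold change 0.29, edgeR SE 0.121, adjusted p = 0.0943). GABARAPL1, another ATG8 protein, went from 64.3 and 64.7 CPM to 65.9 and 75.0 CPM (log2 fold change 0.13, edgeR adjusted p = 0.469), so its first knockdown library was just above the controls. Without knockdown replicate 1 SQSTM1 and MAP1LC3B were called higher, at 0.39 and 0.40 on the log2 scale (edgeR adjusted p = 0.0271 and 0.0123), and without knockdown replicate 2 they were at 0.24 and 0.15 and were not called. SQSTM1 shares 22.4% of its exon bases with MRNIP on the other strand, and MAP1LC3B has a near-identical copy, MAP1LC3B2, whose counts were 141 and 222 without and 217 and 219 with knockdown.

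Counts were also set against transcript length, as occupancy: the percent that the mean count makes of 2 times the length of the canonical transcript. Of 19546 genes with a length 83 were over 100%, the highest was at 296%, and the 99th percentile was 80.8%. Whether counts are limited by length was not tested. Occupancy had a median of 26.9% over the 30 genes and was highest for PSAP (68.5%), ATP6V0B (62.8%) and SQSTM1 (55.9%), where such a limit, if present, would compress fold changes. With saturation-corrected counts SQSTM1 and MAP1LC3B were called higher, with log2 fold changes of 0.52 and 0.41 (edgeR adjusted p = 0.0195 and 0.0485). ATP6V0B was also called higher, at 0.37, and GAA lower, at -0.40 (edgeR adjusted p = 0.0425 and 0.0359). The count of called genes was then 8 of 30, 4 higher and 4 lower, against 26.8% of all genes under that correction.

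Of the 7 V-ATPase subunits none was called. ATP6V1A, the catalytic A subunit of the cytoplasmic V1 sector, was at 116 and 122 CPM in the controls and 137 and 163 CPM after knockdown (log2 fold change 0.34, edgeR SE 0.12, adjusted p = 0.0570). Both knockdown libraries were above the controls, with a wide gap between them, and the value was 0.20 without knockdown replicate 2 and 0.44 without knockdown replicate 1, where it was called (edgeR adjusted p = 0.00626). ATP6V0B, a proteolipid of the membrane V0 sector, was at 75.9 and 73.5 CPM in the controls and 82.5 and 91.4 CPM after knockdown (log2 fold change 0.22, edgeR SE 0.113, adjusted p = 0.176). ATP6V0A1, ATP6V0D1, ATP6V1B2, ATP6V1C1 and ATP6V1H had log2 fold changes between -0.02 and 0.09 with SEs between 0.107 and 0.129, and of these only ATP6V1C1 had groups that did not overlap. ATP6V1B2, which alternates with ATP6V1A in the catalytic ring, was at 127 and 122 CPM in the controls and 121 and 126 CPM in the knockdown.

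Per kilobase of canonical transcript the controls had 88.0 CPM per kilobase of PSAP, 75.7 of ATP6V0B and 64.7 of SQSTM1, the highest of the 30. GAA, CTSZ, CTSD, NPC2, MAP1LC3B, LAMP1 and CTSA followed between 58.1 and 52.6. At the lower end were NEU1 (17.1), MCOLN1 (16.8), TFE3 (12.5), HEXA (8.39), TFEB (6.08) and MITF (1.83). The top 3 were also the 3 genes of highest occupancy, which divides counts by the same length, so the rankings are bound to be alike.

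Genes of the same pathway outside the 30 were taken from 8 lists of 183 genes, of which 170 were tested. Of these, 14 rose and 34 fell, or 28.2%, against 25.6% of all genes tested; the median log2 fold change was -0.04. Called genes of the lists had log2 fold changes between -2.20 and 1.13.

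**Figure D3:**
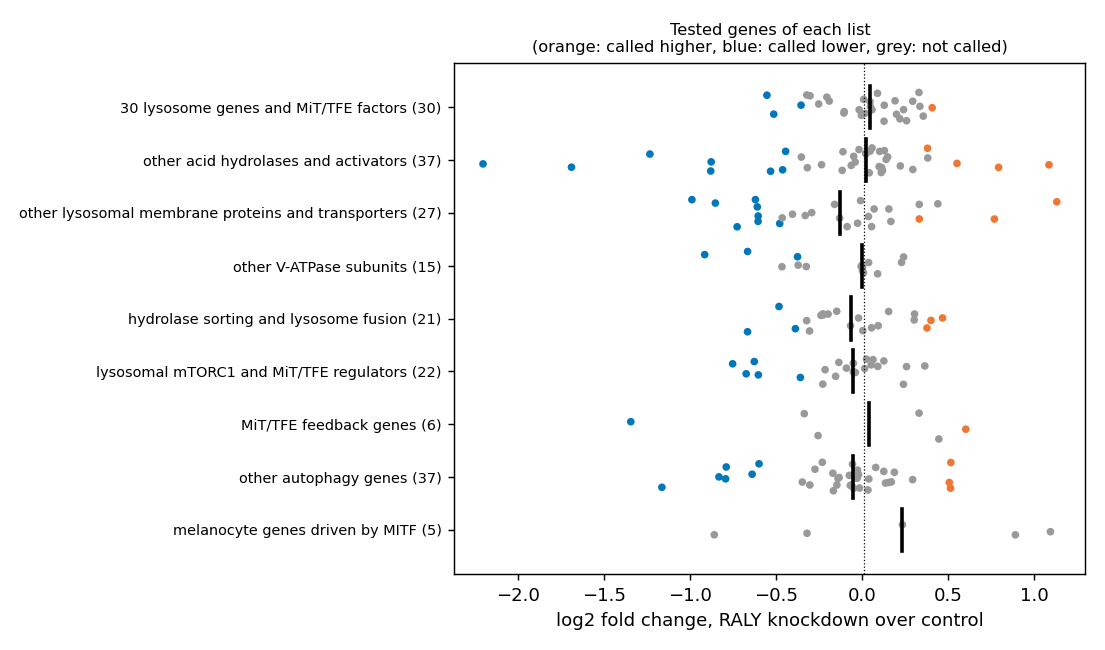
Log2 fold change, RALY knockdown over control, of every tested gene in the set of 30 and in the 8 other lists, 1 point per gene, with a black bar at each list's median and a dotted line at the median of all genes tested (0.01). Medians lie between -0.13 and 0.23, while single genes run from -2.20 (CTSH) to 1.13 (OSTM1).

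Of 39 other hydrolases and activators, 37 were tested, 4 rose and 8 fell (median log2 fold change 0.02). The called genes make 32.4% of those tested, against 25.6% of all genes. ARSB, arylsulfatase B, which desulfates dermatan sulfate, rose from 22.6 ± 1.24 to 47.9 ± 5.61 CPM (SD, n = 2 each; log2 fold change 1.09, edgeR adjusted p = 0.00041). PPT2, a thioesterase, and PLA2G15, a phospholipase, rose by 0.79 and 0.55 on the log2 scale; PPT2 shares 56.0% of its exon bases with the read-through gene PPT2-EGFL8. MAN2B1, lysosomal alpha-mannosidase, fell from 67.6 ± 4.57 to 36.7 ± 2.68 CPM (log2 fold change -0.88, edgeR adjusted p = 0.000602). The cathepsin gene CTSK fell from 12.5 ± 0.373 to 5.29 ± 0.635 CPM. GM2A, the activator that presents GM2 ganglioside to the HEXA enzyme, fell from 86.6 ± 0.774 to 59.9 ± 4.41 CPM (edgeR adjusted p = 0.00565), the opposite direction to HEXA. CTSH, another cathepsin gene, had the lowest log2 fold change of the lists, -2.20, at 1.94 CPM in the controls and 0.420 CPM after knockdown (edgeR adjusted p = 0.00484). GM2A and CTSH were named after their values were seen.

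Of 27 other membrane proteins and transporters, 3 rose and 8 fell, or 40.7%, against 25.6% of all genes tested (median -0.13). OSTM1, the beta subunit of the lysosomal chloride-proton exchanger, rose from 35.5 ± 5.68 to 78.2 ± 15.2 CPM (log2 fold change 1.13, edgeR adjusted p = 0.000474), while CLCN7, the exchanger itself, was lower, at -0.60 on the log2 scale (edgeR adjusted p = 0.00666; named after its value was seen). SLC36A1, an amino acid exporter, rose by 0.77 and SPNS1, a lysophospholipid exporter, by 0.33. SPNS1 shares 62.7% of its exon bases with another gene and was not called by DESeq2 (DESeq2 adjusted p = 0.123). ABCA2, a lipid transporter, fell from 231 ± 9.10 to 128 ± 29.7 CPM (log2 fold change -0.85, edgeR adjusted p = 0.0017). SCARB2, the receptor that carries beta-glucocerebrosidase to lysosomes, fell from 191 ± 11.4 to 125 ± 0.532 CPM (log2 fold change -0.61, edgeR adjusted p = 0.00244). HGSNAT, the membrane acetyltransferase of heparan sulfate breakdown, fell from 60.2 ± 6.32 to 30.2 ± 9.47 CPM. Its log2 fold change of -0.99 was -1.37 without knockdown replicate 1 and -0.71 without knockdown replicate 2, and it was no longer called when control replicate 1 or 2 was left out (edgeR adjusted p = 0.0895 and 0.0622).

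Of 18 other V-ATPase subunits and accessory proteins, 15 were tested, 3 fell and none rose. ATP6V0E2 fell from 76.8 ± 1.52 to 40.7 ± 3.84 CPM (log2 fold change -0.92, edgeR adjusted p = 0.000378). ATP6V1E2 and ATP6V0C, the main proteolipid, fell by 0.67 and 0.38 on the log2 scale. ATP6V0C shares 76.3% of its exon bases with another gene on the same strand (ENSG00000260272), and its counts are uncertain. The 3 that fell make 20% of the 15 tested, against 13.1% of all genes called lower and 25.6% called in either direction. None of the 7 subunits above was called.

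Among 21 genes of hydrolase sorting and lysosome fusion, 3 rose and 3 fell, or 28.6%, against 25.6% of all genes (median -0.07). SORT1, a sorting receptor, and VPS18, a HOPS tethering subunit, rose by 0.47 and 0.40 on the log2 scale. VPS39 and VPS41, also HOPS subunits, fell by 0.67 and 0.39, and SUMF1, which activates sulfatases such as ARSB, fell by 0.48. HOPS members therefore lay on both sides of 0.

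Among genes of lysosomal mTORC1 signalling and other regulators of MiT/TFE factors, 22 of 23 were tested, 5 fell and none rose (median -0.05). NPRL3, a subunit of the GATOR1 complex that inhibits the Rag GTPases, fell from 73.0 ± 3.96 to 43.3 ± 8.55 CPM (log2 fold change -0.75, edgeR adjusted p = 0.00295). MLST8, a subunit of mTOR complexes, fell from 67.6 ± 7.08 to 42.3 ± 7.05 CPM (log2 fold change -0.67, edgeR adjusted p = 0.00534). LAMTOR1, the lipid-anchored subunit of the Ragulator that holds Rag GTPases on lysosomes, fell from 64.7 ± 3.74 to 41.8 ± 6.85 CPM (log2 fold change -0.63, edgeR adjusted p = 0.00677). RPTOR, the mTORC1 scaffold, and RRAGA, a Rag GTPase, were the other called genes, at -0.60 and -0.36. Genes that promote and a gene that restrains mTORC1 activity were both among the 5. The 5 make 22.7% of the 22 tested, against 13.1% of all genes called lower and 25.6% called in either direction. With control replicate 1 or 2 left out, none of the 22 was called by edgeR, where 4.79% and 4.82% of all genes were called. Of the 22, 9 had positive and 13 had negative log2 fold changes. MTOR, the kinase of mTORC1, was at 198 and 195 CPM in the controls and 287 and 220 CPM after knockdown. It was not called (log2 fold change 0.36, edgeR adjusted p = 0.0746), and it was named after its value was seen. TFEC, the remaining MiT/TFE gene, had at most 6 counts in a library and was not tested.

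Of 7 genes described as MiT/TFE feedback targets, 6 were tested, 1 rose and 1 fell, or 33.3%, against 25.6% of all genes. RRAGD, a Rag GTPase that MiT/TFE factors induce, fell from 53.0 ± 2.97 to 20.9 ± 2.60 CPM (log2 fold change -1.34, edgeR SE 0.148, adjusted p = 0.0001) and was called under each of the 12 alternatives run, each left-out library included. FLCN, folliculin, which promotes phosphorylation of TFEB and TFE3, rose from 51.3 ± 3.43 to 78.0 ± 4.91 CPM (log2 fold change 0.60, edgeR adjusted p = 0.0036). FLCN was no longer called when control replicate 1 or 2 was left out (edgeR adjusted p = 0.107 and 0.0602). The other 4 tested genes of this list were not called.

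Of 38 other autophagy genes, 37 were tested, 3 rose and 6 fell, or 24.3%, against 25.6% of all genes (median -0.06). WIPI1, a phosphoinositide-binding protein of early autophagosomes, fell from 32.1 ± 0.440 to 14.3 ± 1.31 CPM (log2 fold change -1.16, edgeR adjusted p = 0.00059); it shares 28.1% of its exon bases with ARSG on the other strand. STX17, the syntaxin of autophagosome-lysosome fusion, fell from 78.3 ± 5.78 to 45.2 ± 3.69 CPM, and ATG4D, a protease that processes ATG8 proteins, fell from 49.2 ± 0.108 to 27.6 ± 0.868 CPM. EPG5, a fusion tether, VMP1, an endoplasmic reticulum scramblase, and ATG14, a subunit of the PI3-kinase complex, rose by 0.51, 0.51 and 0.52 on the log2 scale. Of 10 melanocyte genes driven by MITF, 5 were tested and none was called by edgeR, against 25.6% of all genes, or by DESeq2. An unadjusted edgeR p under 0.05 was reached by 2, against 38.2% of all genes (DCT at -0.86 and RAB27A at -0.32 on the log2 scale, edgeR adjusted p = 0.078 and 0.0986). The other 3 tested genes had positive log2 fold changes, up to 1.10, and the median of the 5 was 0.23.

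**Figure D4:**
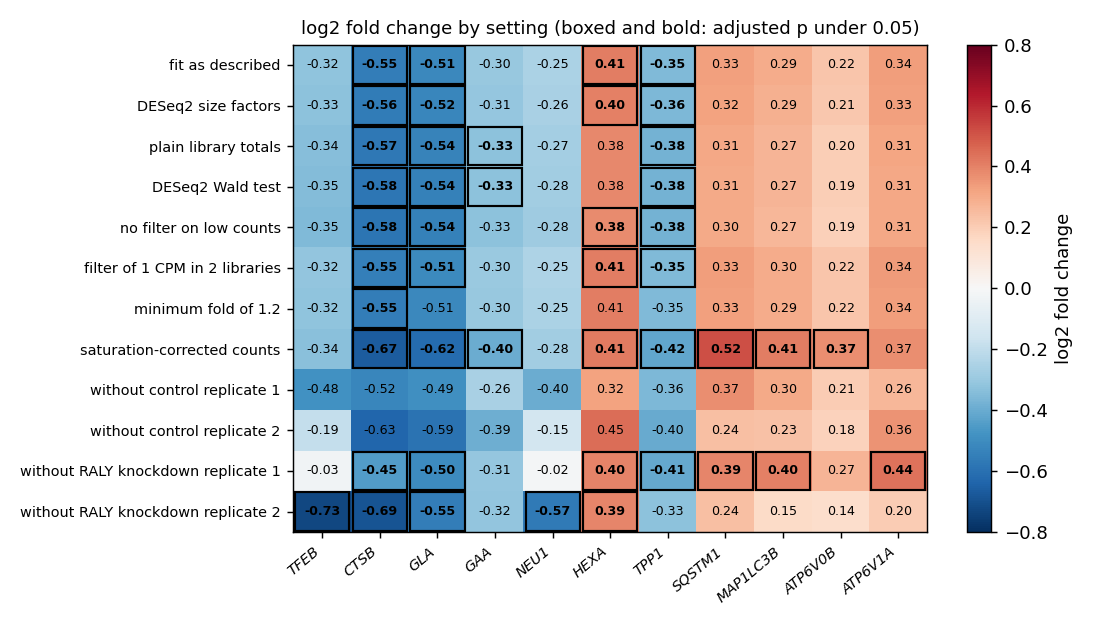
Log2 fold change, RALY knockdown over control, of the 11 genes among the 30 that were called in at least 1 setting shown, with settings in rows and genes in columns; boxed bold values have an adjusted p under 0.05. CTSB, GLA, HEXA and TPP1 are boxed in the top row, no gene is boxed in the rows without a control library, and TFEB and NEU1 are boxed only without knockdown replicate 2.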

How the data were processed

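RNA sequencing counts of 4 libraries were analysed, 2 per group, with groups and replicate numbers from the sample titles. The deposited values are whole-number counts per Ensembl gene, 1 table per library in the layout of featureCounts, per the file headers. HISAT2 2.0.4, featureCounts from Subread, SAMtools and the build GRCh38 are named in the submitters' processing notes. The sources used here give neither the strand setting nor the handling of duplicates. Of 58884 genes, 58472 were named through GENCODE release 44.

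The test was that of edgeR 4.0.16 in R 4.3.3 (filterByExpr, TMM, robust quasi-likelihood F test, Benjamini-Hochberg over 19686 genes, called at an adjusted p under 0.05). Each log2 fold change compares knockdown with control. Library totals were 13360007 to 16847520 counts. Saturation-corrected counts replace a count n by -2L ln(1 - n/2L), with L the canonical transcript length and n/2L limited to 0.98. The script was tested on simulated data. The members, lists, rule for named genes and alternatives were chosen with earlier results of these data known. The rule gave values per library for the MiT/TFE factors, for called members and for the 2 members of smallest p in groups with no call, and named up to 3 called genes per direction of each other list. Of the genes so chosen, 2 are not reported here. Alternatives were DESeq2 1.42.0 (test and size factors), plain totals, other filters, a minimum fold, saturation correction, a replicate block and each library left out.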

Additional observations from a re-analysis of the deposited data

How the results depend on the processing

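Of the 30 genes, 4 were called, and no called gene reversed direction in any alternative run. The count called was 1 (0 higher, 1 lower) against a minimum fold of 1.2 and 8 (4 higher, 4 lower) with saturation-corrected counts. With plain library totals or DESeq2 it was 4, with 0 higher and 4 lower, since HEXA lost its call and GAA gained it. Leaving out 1 library gave 0 to 7 called, with 0 to 4 higher and 0 to 4 lower; 0 were called without either control. The lone library of a group was then assumed to vary like those of the other group. Between the 2 libraries of a group, the chi-square per degree of freedom was 5.10 for the controls and 9.32 for the knockdown. Whether this wider spread of the knockdown libraries ended the calls was not tested. The number of all genes called was 5048, and 3084 against the minimum fold (1480 higher, 1604 lower). It was 984 to 6259 with 1 library left out, with all genes called higher at 340 to 2908 and all genes called lower at 508 to 3351. Of the 48 called genes of the other lists, 35 and 36 lost their call without control replicate 1 and 2, and 11 never lost it. With 2 libraries per group the median SE over the 30 genes was 0.12 on the log2 scale, which limits what could be detected.

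The replicate numbers are shared by the groups, but no label says that they pair the libraries. With the number as a replicate block, 8 of the 30 were called (4 higher, 4 lower), against 35.8% of all genes; deviations of same-numbered libraries had a correlation of 0.239.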
